A study of Mus musculus with 18 samples.

Results

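The response to heat shock was measured in mouse embryonic fibroblasts (MEF) that carried a knockdown of SSBP1. The arrays were chosen by their titles: 3 arrays of SSBP1-KD cells kept at 42 °C for 1 h in a water bath (SSBP1-KD HS) against 3 arrays of SSBP1-KD cells left at 37 °C (SSBP1-KD Cont), 6 of the 18 arrays in the series. In every group the cells were immortalized MEF of ICR background, infected for 2 h with an adenovirus that expressed a short hairpin RNA and then kept in normal medium for 70 h, so the SSBP1-KD Cont cells carried the virus and the Ssbp1 hairpin as well. The other 12 arrays held cells with a scrambled hairpin (SCR) or a hairpin against HSF1 (HSF1-KD), again with 3 Cont and 3 HS arrays each. A single hairpin stood for each knockdown, and no source used here says whether the replicates were separate cultures, so p-values measure the spread between these arrays, which may be technical. The values are log2 array signals. A gene was called raised or lowered at an adjusted p under 0.05 in limma's test.

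Heat shock unfolds proteins and activates HSF1, the transcription factor that binds heat shock elements in the promoters of chaperone genes. Chaperones of the HSP70, HSP40, HSP90 and small HSP families bind unfolded proteins in the cytoplasm and nucleus, and HSP60 and HSP10 do so in mitochondria. SSBP1 coats single-stranded mitochondrial DNA during its replication, and the study asked how its loss bears on the HSF1 response. Heat also acts on immediate early genes, which respond to stress kinases, and on RNA processing.

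Array SSBP1-KD Cont 1 stood apart from the rest. Its mean absolute deviation from the group means was 0.152 on the log2 scale against 0.0700 to 0.110 for the other 17 arrays, and its signals correlated with those of its own group at 0.985 and 0.987, where all other pairs within a group reached 0.993 to 0.997. The counts below are therefore also given without it. The 12 fibroblast markers had mean log2 signals of 10.49 to 10.59 on the Cont arrays and 10.51 to 10.54 on the HS arrays, and none of them was called. Of the 8 macrophage and leukocyte markers, whose mean lay between 7.32 and 7.55 on all 6 arrays, Cd3e and Cd68 rose and Cd14 fell. Their part in the other results was not tested, and in bulk RNA fewer cells of a type and less RNA per cell cannot be told apart.

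Ssbp1 itself, the gene that the hairpin targets, was read by 2 probe sets. On the brighter one the SSBP1-KD Cont arrays read 9.02, 9.25 and 9.32, below the SCR Cont arrays at 9.54, 9.36 and 9.36. The difference of -0.22 ± 0.08 (log2, SE) had an adjusted p of 0.0555, and on the other probe set it was -0.07 with an adjusted p of 0.513. The arrays thus gave the Ssbp1 knockdown label a weak check at 37 °C. With heat shock Ssbp1 fell further, to 8.71, 8.57 and 8.67 on the brighter probe set, a change of -0.55 ± 0.08 (adjusted p = 0.000642), and by 0.82 on the other. The SCR HS arrays, at 9.07, 9.09 and 9.03, lay above the SSBP1-KD HS arrays on the brighter probe set and overlapped them on the other. The paper also showed SSBP1 protein levels in knockdown cells by western blot. With heat shock the Ssbp1 signal was not specific to SSBP1-KD cells. Its fall was also seen in SCR and HSF1-KD cells, by 0.36 and 0.29 on the brighter probe set and by 0.86 and 0.87 on the other. The difference in response did not pass against SCR cells on either (adjusted p = 0.667 and 0.946).

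Heat shock raised 813 genes and lowered 562 of the 19938 genes measured in SSBP1-KD cells, which is 4.08% and 2.82%. Most of these changes were small, with a median of 0.227 for raised genes and 0.29 for lowered genes on the log2 scale. At a fold change over 1.5, the size the study used for heat-inducible genes, and an unadjusted p below 0.05, 42 genes rose (0.211%) and 83 fell (0.416%). On 41 of the 42 and 81 of the 83 the HS arrays did not overlap the Cont arrays, a separation that 13.6% of all genes showed upwards and 10.6% downwards. Without SSBP1-KD Cont 1 the adjusted counts were 608 and 585, and the counts past 1.5-fold were 44 and 104. Without SSBP1-KD HS 1 or HS 3 the raised genes numbered 407 and 421, and without SSBP1-KD HS 2 the lowered genes numbered 329. A fit on the 6 SSBP1-KD arrays alone called 96 and 92 genes. It has less information on the spread, and it does not borrow the spread of the other groups as the main fit does. Mean absolute deviations from the group means were 0.152, 0.0918 and 0.1095 on the SSBP1-KD Cont arrays. On the SCR and HSF1-KD arrays they were 0.0700 to 0.0976, so the main fit may understate the spread of this comparison. What lowered the counts was not tested.

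Cytoplasmic/nuclear chaperones were among the largest rises. Of 9 measured HSP70 and HSP110 genes 3 rose and none fell, of 19 HSP40 genes 4 rose, of 16 genes for HSP90 and its co-chaperones 5 rose, and of 14 small HSP and BAG genes 4 rose, against 4.08% raised among all genes. These lists were drawn up with earlier results known. The medians of the 4 groups were 0.08, 0.07, 0.11 and 0.08, so the typical member moved little, and all genes had a median of -0.013. None of the 14 genes for the TRiC chaperonin and prefoldin was called. Without SSBP1-KD Cont 1 the HSP90 group had 3 rises and the small HSP and BAG group 3.

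Hspa1a, the inducible HSP70, showed the largest change of any named gene. Its signal was 8.85, 8.68 and 8.61 on the Cont arrays and 12.11, 12.08 and 12.20 on the HS arrays, a 10.7-fold induction (log2 3.42 ± 0.07, adjusted p = 1.625e-13). The groups were far apart, and the probe set shared by Hspa1a and its near-identical copy Hspa1b rose by 3.87. Hspa8, the constitutive HSP70, was read only by probe sets that also carry the small nucleolar RNAs of its introns, and these rose by 1.72 and 1.75. Snord14e, one of those intronic RNAs, went from 10.39, 10.48 and 10.47 to 12.45, 12.53 and 12.56. Hsph1 (HSP110), a nucleotide exchange factor for HSP70, went from 10.84, 11.01 and 10.96 to 12.24, 12.28 and 12.25, a 2.50-fold induction (log2 1.32 ± 0.07, adjusted p = 6.56e-08). Hspa4l, its relative, rose by 0.39 ± 0.06.

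Among the HSP40 co-chaperones, which hand substrates to HSP70, Dnajb1 changed most. It read 9.67, 9.74 and 9.82 on the Cont arrays and 11.41, 11.54 and 11.49 on the HS arrays (3.34-fold, log2 1.74 ± 0.07, adjusted p = 1.97e-09). Dnaja4 rose by 0.73 ± 0.07, Dnajb4 by 0.38 ± 0.06 and Dnaja1 by 0.36 ± 0.06, and none of the 4 had overlapping groups. Dnaja1 had a dimmer probe set that rose by 1.00, so the size of its induction differed between probe sets.

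Hspb1 (HSP25 in the mouse), a small HSP that holds unfolded proteins, rose from 11.88, 11.81 and 11.84 to 13.10, 13.17 and 13.12 (2.44-fold, log2 1.29 ± 0.07, adjusted p = 2.43e-08). Bag3, which couples HSP70 to small HSPs, rose by 0.78 ± 0.06 and Hspb8, its partner, by 0.41 ± 0.06. Bag4 rose by 0.19, a call that was lost without SSBP1-KD Cont 1 (adjusted p = 0.0712). Hsp90aa1, the inducible HSP90, started bright at 13.02, 13.07 and 13.08 and reached 13.39, 13.41 and 13.42 (0.35 ± 0.04). The HSP90 co-chaperones Ahsa1 and Fkbp4 rose by 0.33 and 0.23. Cacybp and St13 rose by 0.27 and 0.15, and neither passed without SSBP1-KD Cont 1 (adjusted p = 0.104 and 0.108).

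**Figure D1:**
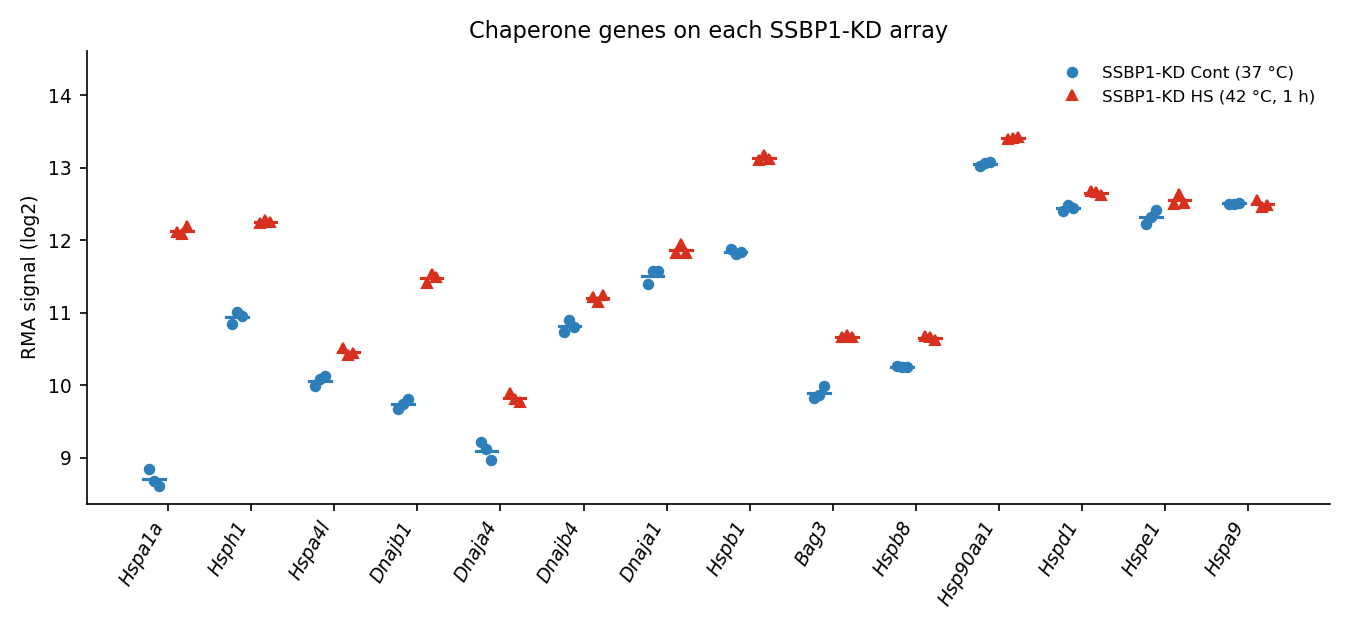
The plot shows the log2 RMA signal (vertical axis) of 14 chaperone genes on each SSBP1-KD array, with circles for the 3 Cont arrays, triangles for the 3 HS arrays and a bar at each mean. Hspa1a moved from 8.61 to 8.85 at 37 °C up to 12.08 to 12.20 after heat shock, whereas the HS and Cont arrays of Hspa9 overlapped.

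Few mitochondrial chaperones were called, where 4.08% of all genes were raised and 2.82% lowered. Hspd1 (HSP60) read 12.40, 12.49 and 12.45 on the Cont arrays and 12.68, 12.66 and 12.62 on the HS arrays (log2 0.21 ± 0.05, adjusted p = 0.01605, and 0.0494 without SSBP1-KD Cont 1). Its partner Hspe1 (HSP10) changed by 0.23 ± 0.07 and did not pass (adjusted p = 0.0696), although its dimmer probe set did, at 0.22 and an adjusted p of 0.02605. Hspa9, the mitochondrial HSP70, differed by less than 0.01 (adjusted p = 0.960). Of 22 mitochondrial chaperones and proteases, Hspd1 alone rose and the protease Htra2 alone fell, by 0.18. Among 22 genes for replication and transcription of mitochondrial DNA, Polg2, the accessory subunit of the mitochondrial DNA polymerase, rose by 0.64 ± 0.07, from 8.31, 8.55 and 8.56 to 9.07, 9.16 and 9.11. Ssbp1, the elongation factor Tefm (-0.31) and the topoisomerase Top3a (-0.17) fell. Of 48 nuclear-encoded respiratory chain genes 2 rose and none fell. The rises in this list and among the 22 chaperones and proteases were near the share of all genes.

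Matches to a heat shock element were looked for in the RefSeq promoters (GRCm38.p6, 250 bases before to 50 after each start), which were found for 15614 of the measured genes. The element was taken as 2 units, GAANNTTC or TTCNNGAA, each of which reads the same on both strands, and the 3-unit form adds another GAA or TTC at the same spacing. The 2-unit form was in the promoters of 9 of 31 genes raised past 1.5-fold (29.0%), 4 of 22 lowered past 1.5-fold (18.2%) and 58 of all 373 lowered genes (15.5%), where 15.4% of all promoters held it. Over all 655 raised genes with a promoter the share was 13.4%. The 3-unit form was in 0.564% of all promoters, in 1 of 31 genes raised past 1.5-fold (3.23%) and in 0 of 22 lowered past 1.5-fold. Lowered genes such as Snhg5 and Lfng held the 2-unit form too. The windows below were picked from chaperone genes that rose and held a match and from Jun, with the GAA and TTC units in capitals. They lie at chr17:34972243-34972270 on the minus strand for Hspa1a, chr5:149636278-149636310 on the minus strand for Hsph1, chr5:135887792-135887819 on the plus strand for Hspb1, chr9:54699459-54699486 on the plus strand for Dnaja4, chr4:40722334-40722361 on the plus strand for Dnaja1, chr3:152193842-152193869 on the minus strand for Dnajb4, chr4:95052333-95052360 on the minus strand for Jun and chr1:55088049-55088086 on the minus strand for Hspd1, whose promoter runs into that of Hspe1 on the other strand. A match is a description of the letters and not a site in use, and the lack of one says nothing of the factor.
Hspa1a: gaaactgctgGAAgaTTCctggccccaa
Hsph1: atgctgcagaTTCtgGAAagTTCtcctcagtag
Hspb1: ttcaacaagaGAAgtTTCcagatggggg
Dnaja4: gaacctccgcGAAcgTTCtgggcctatg
Dnaja1: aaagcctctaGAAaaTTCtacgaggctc
Dnajb4: tcgttcgctgTTCtaGAAagtacagaga
Jun: gcccagagaaGAAtcTTCtagggtgagg
Hspd1: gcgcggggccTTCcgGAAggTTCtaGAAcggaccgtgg

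Some immediate early genes rose too, where 4.08% of all genes were raised. Of 12 AP-1 and ATF3 genes 5 rose, of 34 EGR, IER, NR4A and other early genes 10 rose and 3 fell, of 12 KLF factors 2 rose, and 7 rose among 18 phosphatases of MAP kinases and their feedback inhibitors. Their medians were 0.25, 0.06, 0.07 and 0.15, and 7, 21, 10 and 11 members were not called. Atf3, a stress-induced repressor of the ATF/CREB family, read 10.56, 10.48 and 10.50 on the Cont arrays and 11.68, 11.63 and 11.82 on the HS arrays (2.29-fold, log2 1.20 ± 0.08, adjusted p = 5.585e-07). Jun, the AP-1 subunit, went from 10.54, 10.52 and 10.51 to 11.57, 11.50 and 11.51 (log2 1.00 ± 0.05, adjusted p = 1.98e-08). Neither gene had overlapping groups.

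Fos, the partner of JUN, rose by 0.76 ± 0.10 (adjusted p = 0.000230) and Egr1, a zinc-finger factor of the serum response, by 0.71 ± 0.07. Egr2, its relative, changed by 0.18 and did not pass (adjusted p = 0.2825). Phlda1, an early gene induced by growth factors, rose by 0.84 ± 0.09, Gadd45g and Gadd45b, which act on stress kinases, by 0.66 and 0.41, and Zfp36, which destabilizes AU-rich mRNA, by 0.45. Dusp1, the phosphatase that inactivates stress MAP kinases, rose from 11.85, 11.81 and 11.80 to 12.62, 12.61 and 12.59 (log2 0.79 ± 0.06, adjusted p = 1.28e-06). Dusp8 rose by 0.62, Klf6 by 0.46, Klf4 by 0.30, Jund by 0.32 and Mafk by 0.28. Errfi1, a feedback inhibitor of the EGF receptor, was at 11.62, 11.63 and 11.64 before and 11.70, 11.65 and 11.69 after heat shock, and was not called (adjusted p = 0.507).

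Other large rises were in genes of mixed function. Best2, a bestrophin chloride channel, read 8.22, 7.83 and 7.66 on the Cont arrays and 9.48, 9.55 and 9.57 on the HS arrays (3.09-fold, log2 1.63 ± 0.14, adjusted p = 6.37e-06). Agbl2, a carboxypeptidase that trims tubulin, rose by 1.06 ± 0.08, and Vaultrc5, a vault RNA, by 1.24 ± 0.18. Smaller rises were seen in Clec4a1 (1.00), a C-type lectin, Ctsk (0.93), the collagen-cleaving cathepsin K, Slc5a5 (0.86), the sodium-iodide symporter, Cd3e (0.85), a T-cell receptor subunit, Lrrn4cl (0.80) and Sult6b1 (0.77), a sulfotransferase. The largest rises were picked only from genes with every HS array above every Cont array, so that separation is no added support for these genes. Edn1, the vasoconstrictor endothelin 1, rose by 0.57 ± 0.07.

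Krtap4-16, a hair keratin-associated protein, rose more in SSBP1-KD cells than in the other cells. It read 5.88, 6.01 and 5.99 on the SSBP1-KD Cont arrays and 7.25, 7.06 and 7.22 on the HS arrays (log2 1.22 ± 0.09, adjusted p = 1.38e-06). On the 12 arrays of the other cells it lay between 5.86 and 6.25 at both temperatures. The heat response in SSBP1-KD cells exceeded that in SCR cells by 1.08 (adjusted p = 0.000881) and that in HSF1-KD cells by 1.33 (adjusted p = 0.000147).

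Many of the lowered genes were microRNA genes. Of the 83 genes lowered past 1.5-fold, 42 were microRNA genes. Over the array 296 microRNA genes were measured, of which 74 fell (25.0%) and 3 rose (1.01%), against 2.82% and 4.08% of all genes. Without SSBP1-KD Cont 1, 69 fell and 3 rose. The median change of microRNA genes was -0.171, beside -0.013 for all genes. Of the 296, 116 had every HS array below every Cont array, as had 10.6% of all genes. The microRNA genes and Snord14e were grouped and named after their values were seen, so these counts are a description. A microRNA is cut from a hairpin in a longer primary transcript, and whether these probe sets read the primary transcript, the hairpin or the mature form was not tested. The median signal of the microRNA genes on the 6 arrays was 6.38, so many of them were dim.

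**Figure D2:**
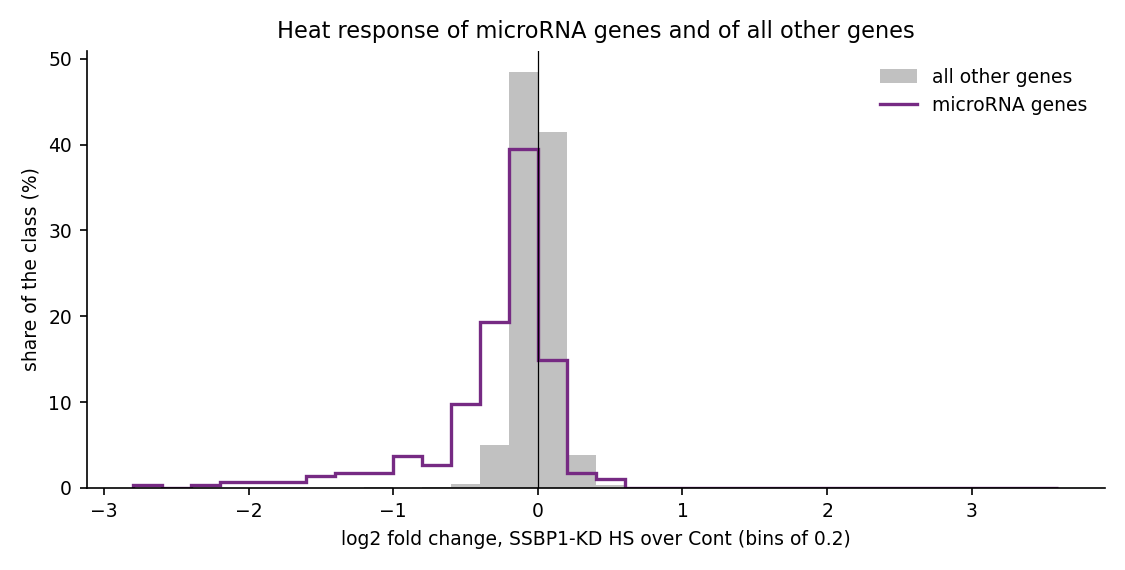
The histogram shows the log2 fold change with heat shock in SSBP1-KD cells (horizontal axis, bins of 0.2) as a share in percent of the 296 microRNA genes (line) and of all other genes (filled). The microRNA genes reach down to -2.69, with 74 lowered and 3 raised.

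Mir15b showed the largest fall of all genes. It read 6.68, 7.37 and 7.42 on the Cont arrays and 4.79, 4.46 and 4.16 on the HS arrays (log2 -2.69 ± 0.18, adjusted p = 3.965e-07), and its neighbour Mir16-2, on the same strand at chr3:69009772-69009996 (GRCm38.p6), fell by 1.40 ± 0.13. Mir15a, of the same family, fell by 1.85. Mir145a, a microRNA of mesenchymal cells, went from 8.03, 8.37 and 8.19 to 6.09, 5.84 and 6.04 (log2 -2.20 ± 0.09, adjusted p = 1.56e-09). No HS array overlapped a Cont array for any of the 4.

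Among 40 clusters with more than 1 measured microRNA gene, every measured gene fell in 10, some fell in 8 and none in 22. The largest cluster, at chr12:109709060-109743496, had 29 measured genes, of which 2 fell and 1 rose. All 5 measured members of the Mir17 cluster at chr14:115043671-115044391 on the plus strand were lowered, with log2 changes of -0.59 for Mir17, -1.95 for Mir18, -2.045 for Mir19a, -0.88 for Mir20a and -1.56 for Mir19b-1. Its host transcript Mir17hg fell as well, from 7.79, 7.93 and 8.04 to 6.68, 6.68 and 6.40 (log2 -1.34). Mir100hg, the host of Mir100, fell from 10.35, 10.42 and 10.54 to 8.99, 9.01 and 8.98 (log2 -1.44 ± 0.06, adjusted p = 4.33e-09). Since clustered hairpins share a transcript, the 39 microRNA genes that fell past 1.5-fold and could be matched to RefSeq stand for 29 loci, where genes within 10000 bases of each other count as 1.

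Grouped by seed, bases 2 to 8 of the mature microRNA that pair with the target mRNA, the genes lowered past 1.5-fold held several members of the same families. The RefSeq mature sequences of 6 of these families are given because several genes that fell share the seed, which is in capitals. The seed counts cover only genes matched to a RefSeq hairpin, 258 of the 296, and so leave out Mir15a. Among the matched genes, 3 of 5 with the AGCAGCA seed fell, Mir15b and Mir16-2 past 1.5-fold. The AAAGUGC seed is that of Mir17, Mir20a, Mir93 and Mir106b, with 4 of 6 lowered. The GAGGUAG seed is that of let-7, with 6 of 9 lowered. Of all 296 microRNA genes 25.0% fell. The measured genes with these seeds lay at 3, 3 and 6 loci, and the families were picked for their falls. The counts are therefore a description and do not show an effect of the seed.
mmu-miR-15b-5p: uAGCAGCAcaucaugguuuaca
mmu-miR-16-5p: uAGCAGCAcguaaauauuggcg
mmu-miR-17-5p: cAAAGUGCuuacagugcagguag
mmu-miR-20a-5p: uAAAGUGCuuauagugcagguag
mmu-miR-93-5p: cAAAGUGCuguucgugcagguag
mmu-miR-106b-5p: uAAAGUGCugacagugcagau
mmu-let-7c-5p: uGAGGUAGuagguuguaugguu
mmu-let-7d-5p: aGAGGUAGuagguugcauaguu
mmu-let-7e-5p: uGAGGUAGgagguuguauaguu
mmu-miR-98-5p: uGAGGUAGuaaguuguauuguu
mmu-miR-19a-3p: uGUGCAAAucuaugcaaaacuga
mmu-miR-19b-3p: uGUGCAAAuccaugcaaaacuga
mmu-miR-99a-5p: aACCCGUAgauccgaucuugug
mmu-miR-100-5p: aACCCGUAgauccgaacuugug
mmu-miR-221-3p: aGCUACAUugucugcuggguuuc
mmu-miR-222-3p: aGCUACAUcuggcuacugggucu

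The let-7 genes Mirlet7c-1, Mirlet7d, Mirlet7e and Mir98, at 4 different loci, changed by -1.38, -1.35, -0.92 and -1.41. Mir99a, next to Mirlet7c-1, fell by 1.395 and Mir100, with the same seed at another locus, by 1.07. Mir93 and Mir106b, which share a cluster, fell by 0.69 and 0.70. Mir221 and Mir222, neighbours on the X chromosome, fell by 1.13 and 0.68. Each of the 16 genes whose mature sequence is shown had lower signals on every HS array than on every Cont array. These genes were picked because they fell past 1.5-fold, so that separation is no added support.

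Some small nucleolar RNA genes fell as well, where 2.82% of all genes were lowered and 4.08% raised. Of 31 C/D box small nucleolar RNA genes 14 fell and 2 rose, of 20 H/ACA box genes 7 fell and none rose, and of 5 Snhg genes, whose introns hold such RNAs, 3 fell. The long RNAs Dancr and Gas5, which also host small nucleolar RNAs, went down. Dancr read 8.66, 8.97 and 8.96 on the Cont arrays and between 7.98 and 8.06 on the HS arrays (log2 -0.85 ± 0.12, adjusted p = 0.000622). Gas5 was spread on the HS arrays, at 10.25, 10.63 and 9.97 after 11.07, 11.02 and 11.17, and its fall of 0.80 ± 0.23 passed narrowly (adjusted p = 0.04405, and 0.0818 without SSBP1-KD Cont 1). Its other 3 probe sets fell by 0.57, 1.23 and 2.50 and all passed.

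Snhg5 fell by 0.66 ± 0.08. Snhg17 fell by 0.67 ± 0.12 on its brightest probe set, from 10.26, 10.22 and 10.19 to 9.63, 9.48 and 9.54, whereas 1 of its other 2 probe sets fell by 0.41 and the other read 0.10 higher and was not called. Rpl12 and Rpl30, ribosomal protein genes, were the only 2 of 39 cytosolic ribosomal protein genes to be called, with falls of 0.79 ± 0.07 and 0.69 ± 0.12.

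**Figure D3:**
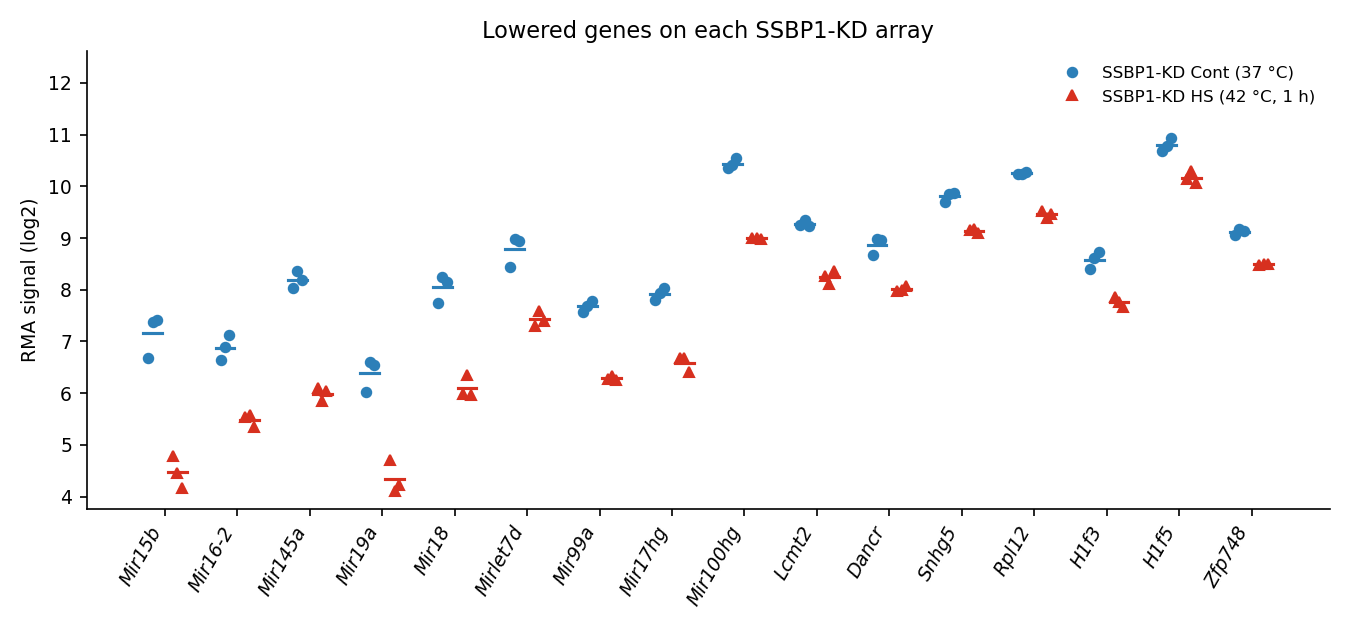
The plot shows the log2 RMA signal (vertical axis) of 16 lowered genes on each SSBP1-KD array, with circles for the 3 Cont arrays, triangles for the 3 HS arrays and a bar at each mean. For each gene all HS arrays lie below all Cont arrays, from a change of -2.69 for Mir15b to -0.63 for H1f5 and Zfp748. The genes were picked for their falls, so this separation is no added support.

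Lcmt2, a tRNA-modifying methyltransferase, led the falls among the protein-coding genes named here, from 9.25, 9.34 and 9.23 to 8.26, 8.12 and 8.36 (log2 -1.03 ± 0.06, adjusted p = 1.875e-07). Trmt12, of the same tRNA wybutosine pathway, fell by 0.58 and Rpp38, a subunit of RNase P, by 0.56. The zinc-finger genes Zfp119b, Zfp119a, Zfp748 and Zfp39 fell by 0.89, 0.78, 0.63 and 0.58. Ppp2r1b, a scaffold subunit of protein phosphatase 2A, fell by 0.63, Lpar6, a lysophosphatidic acid receptor, by 0.61 and B3galt6, a galactosyltransferase of proteoglycan synthesis, by 0.57. The largest falls were picked only from genes with every HS array below every Cont array, so that separation is no added support for these genes.

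Of 23 measured replication-dependent histone genes 9 fell, 14 were not called and none rose, against 2.82% lowered among all genes. Their median was -0.26, and 56 such genes were listed in all. The linker histone H1f3 went from 8.40, 8.62 and 8.73 to 7.86, 7.76 and 7.66 (log2 -0.82 ± 0.10, adjusted p = 0.000152). H1f5 fell by 0.63 ± 0.11, H1f1 by 0.51 ± 0.07 and H2bc14 by 0.40 ± 0.05. H3c15 was at 8.57, 9.18 and 9.05 on the Cont arrays and 8.80, 8.83 and 8.68 on the HS arrays, which overlapped, and was not called (adjusted p = 0.5715).

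Other stress pathways showed few calls, where 4.08% of all genes were raised and 2.82% lowered. In lists of this size those shares amount to few genes. Of 28 cytokine, prostaglandin and inflammatory genes 3 fell and none rose: Nfkbia, the inhibitor of NF-kappa B, by 0.43 ± 0.06, and the chemokines Ccl7 and Ccl2 by 0.40 and 0.20. Of 26 ER chaperone and unfolded-protein response genes 2 rose and 1, Xbp1, the transcription factor of that response, fell by 0.23. None of 30 ATF4 targets, 32 proteasome subunits, 15 ubiquitin and autophagy adaptors, 22 interferon-stimulated genes and 20 glycolysis and hypoxia genes was called. Of 18 NRF2 and metal response genes only Nfe2l2, which encodes NRF2, was called, with a fall of 0.27. Cirbp, the cold-inducible RNA-binding protein, fell by 0.35 and Lfng, a modifier of Notch, by 0.50.

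**Figure D4:**
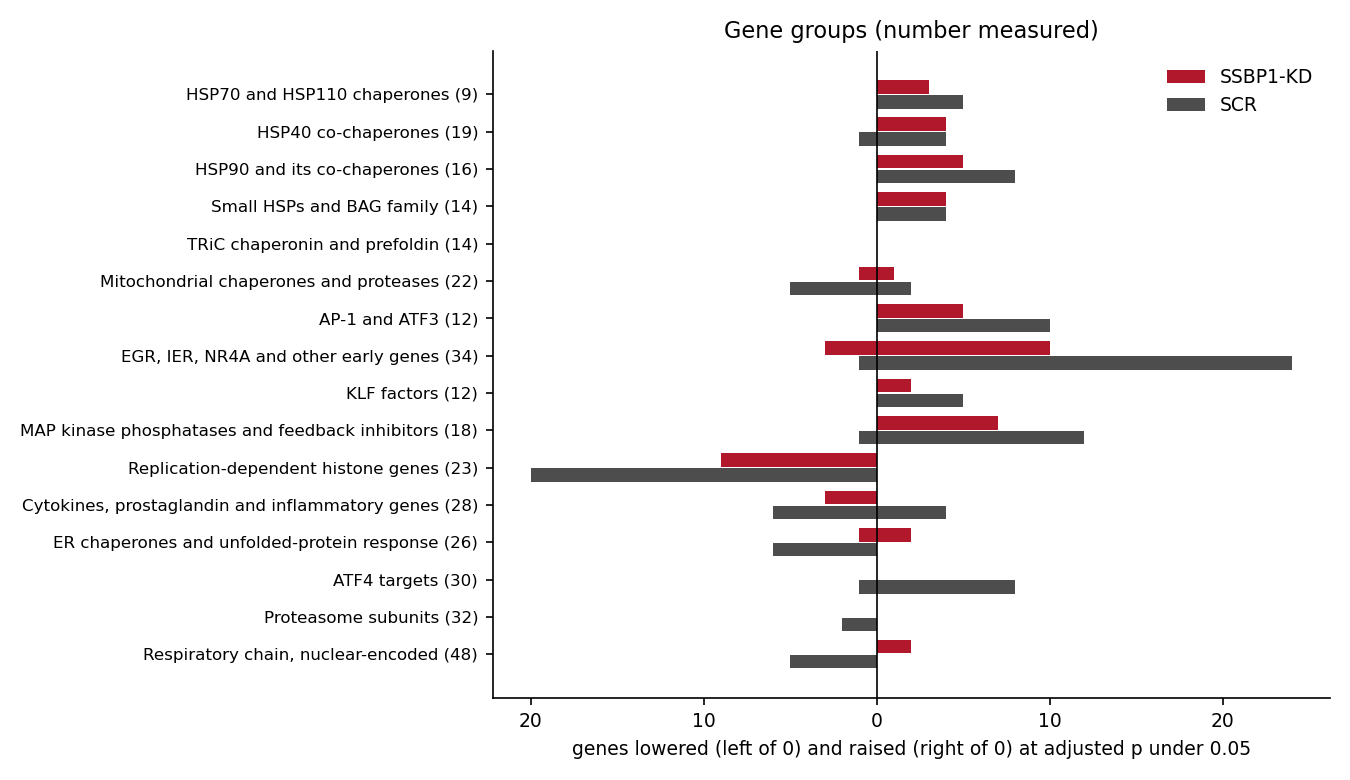
The bars count the genes of each list that were raised (right of 0) or lowered (left of 0) by heat shock at an adjusted p under 0.05, in SSBP1-KD cells and in SCR cells, with the number of measured genes in brackets. In SSBP1-KD cells 9 histone genes were lowered and 10 of the EGR, IER, NR4A and other early genes raised, where SCR cells had 20 and 24. Of all genes 2.82% were lowered and 4.08% raised in SSBP1-KD cells, and 8.34% and 7.63% in SCR cells. The difference from SCR cells itself passed for 5 of 23 histone genes and 9 of 34 early genes.

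The heat response of SSBP1-KD cells was then set beside those of the other cells. Heat shock raised 1522 genes (7.63%) and lowered 1663 (8.34%) in SCR cells, and raised 2114 (10.6%) and lowered 2158 (10.8%) in HSF1-KD cells. Of the 813 genes raised in SSBP1-KD cells, 592 were also raised in SCR cells, which is 72.8% of the first set and 38.9% of the second, and 635 in HSF1-KD cells, 78.1% and 30.0%. Of the 562 lowered genes, 419 were lowered in SCR cells (74.6% and 25.2%) and 421 in HSF1-KD cells (74.9% and 19.5%). The test of the difference itself found a lower response (a smaller rise or a larger fall) in SSBP1-KD than in SCR cells for 62 genes (0.311%) and a higher one for 36 (0.181%). Against HSF1-KD cells 10 genes were lower (0.0502%) and 58 higher (0.291%). The tests share the SSBP1-KD arrays, and the HSF1-KD label was not checked here on Hsf1 itself. These counts rest on few arrays. The fit on the compared arrays alone gave 29, 5, 6 and 9, and leaving out 1 array gave 33 to 83, 10 to 38, 4 to 15 and 16 to 52, with the lowest values without SCR HS 3 for the first and second, without SSBP1-KD HS 1, among others, for the third and without SSBP1-KD HS 3 for the fourth.

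The heat response of several chaperones in SSBP1-KD cells lay between those in SCR and HSF1-KD cells. Hspa1a rose by 3.42 in SSBP1-KD, 4.31 in SCR and 0.55 in HSF1-KD cells, so that the response was lower than in SCR by 0.90 (adjusted p = 0.0002905) and higher than in HSF1-KD by 2.86 (adjusted p = 2.79e-10). The SSBP1-KD and SCR HS arrays of Hspa1a did not overlap, at 12.08 to 12.20 and 12.79 to 12.90. Dnajb1 rose by 1.74, 2.96 and 0.11 in the 3 kinds of cell and Hsph1 by 1.32, 2.44 and 0.17. Hspb1 rose by 1.29, 2.12 and 0.24 and Bag3 by 0.78, 1.92 and 0.00. For these 5 genes both differences passed. Hspd1 rose by 0.21, against 0.88 in SCR cells (adjusted p of the difference = 0.0002905), whereas its difference from HSF1-KD cells did not pass (0.06 there, adjusted p = 0.444).

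In all, 3 of 9 HSP70 and HSP110 genes, 4 of 19 HSP40 genes, 3 of 16 genes for HSP90 and its co-chaperones, 3 of 14 small HSP and BAG genes and 1 of 22 mitochondrial chaperones and proteases had a lower heat response in SSBP1-KD than in SCR cells, against 0.311% of all genes. A higher response than in HSF1-KD cells was found for 2, 2, 0, 2 and 0 genes of these 5 groups, against 0.291% of all genes. The difference tests did not pass for the remaining members on their brightest probe sets. The dimmer probe set of Hspe1 did have a lower response than in SCR cells. It rose by 0.22 against 0.65, a difference of -0.43 (adjusted p = 0.03218). Of the 42 genes raised past 1.5-fold in SSBP1-KD cells, 14 rose less than in SCR cells and 1 rose more, Krtap4-16. For the 83 lowered genes 1 fell less than in SCR cells, Lpar6, at -0.61 against -1.15. No microRNA gene had a lower response and 1 of 296 a higher one than in SCR cells, where 0.311% and 0.181% of all genes did. In a class of this size those shares amount to few or no genes. Mir15b changed by -3.02 in SCR and -2.94 in HSF1-KD cells.

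**Figure D5:**
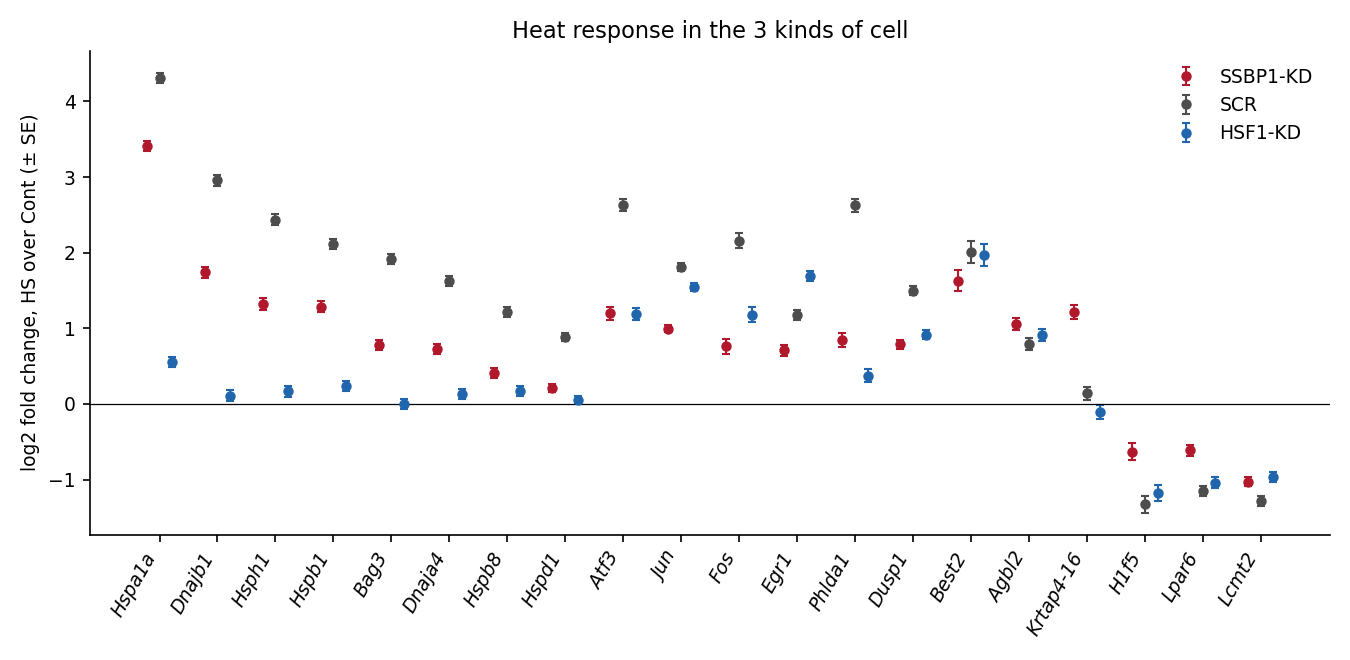
The points give the log2 fold change with heat shock (HS over Cont, vertical axis) with its standard error for 20 genes in SSBP1-KD, SCR and HSF1-KD cells. For Hspa1a the values are 3.42, 4.31 and 0.55, and for Lcmt2 the 3 kinds of cell lie between -1.28 and -0.97.

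Among the early genes, 3 of 12 AP-1 and ATF3 genes, 9 of 34 EGR, IER, NR4A and other early genes, 2 of 12 KLF genes and 6 of 18 of the phosphatase group had a lower response than in SCR cells. Over all genes that share was 0.311%, and the lists were drawn up with earlier results known. Against HSF1-KD cells the response was lower for 1, 2, 0 and 0 of them and higher for none. Of all genes 0.0502% were lower and 0.291% higher there, which in lists of this size amounts to few or no genes. Atf3 rose by 1.20 in SSBP1-KD and 1.19 in HSF1-KD cells but by 2.63 in SCR cells (adjusted p of the difference from SCR = 4.21e-05). Its SSBP1-KD Cont arrays, at 10.48 to 10.56, began above the SCR Cont arrays, at 9.80 to 10.10. Phlda1 rose by 0.84, against 2.62 in SCR cells, the largest of the lower responses that were named (-1.78, adjusted p = 2.22e-05). Jun rose by 1.00 against 1.81 in SCR and 1.54 in HSF1-KD cells, and both differences passed. Egr1 rose by 0.71 against 1.69 in HSF1-KD cells (adjusted p of the difference = 0.000147), and its difference from SCR cells did not pass (adjusted p = 0.0511).

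Other genes differed between the kinds of cell in other ways. Ppp1r10, a nuclear targeting subunit of protein phosphatase 1, fell in SSBP1-KD cells from 11.16, 11.13 and 11.15 to 10.96, 10.92 and 10.91 (log2 -0.22 ± 0.05, adjusted p = 0.0179), and rose by 0.32 in SCR and 0.28 in HSF1-KD cells. The differences were -0.54 (adjusted p = 0.00319) and -0.49 (adjusted p = 0.0114). H3c15 fell by 1.66 in SCR cells, and the difference of 1.4945 from SSBP1-KD cells passed (adjusted p = 0.00424). Edn1 rose by 0.57 in SSBP1-KD cells and changed by -0.07 in HSF1-KD cells (adjusted p of the difference = 0.01595). The difference of H3c15 from HSF1-KD cells (adjusted p = 0.18) and that of Edn1 from SCR cells (adjusted p = 0.489) did not pass.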

How the data were processed

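RNA of 18 samples (6 groups of 3) was read on gene-level mouse arrays. The authors deposited log2 values made by RMA in Partek 6.5 (submitters' processing notes), 35557 probe sets per array, and these were used as deposited. Arrays carry no read depth, so the number of arrays limits the precision. The 21789 probe sets with 1 gene symbol gave 19938 genes, each read from its brightest probe set, and 21698 of these probe sets matched RefSeq. Hsf1 was not analysed here, so the HSF1-KD label was not checked. The table held 0 columns of other series.

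limma 3.58.1 (R 4.3.3) fitted 1 mean per group over all 18 arrays (12 residual degrees of freedom), with Benjamini-Hochberg adjustment over all probe sets. Differences in heat response were contrasts of contrasts in the same fit. The procedure was tested on simulated data with independent noise and the same spread in every group. That test does not cover an outlying array such as SSBP1-KD Cont 1. Tables were made with pandas 2.3.3 and Python 3.11.15, plots with matplotlib 3.10.9. The replicate numbers did not pair the samples.

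Genes named were the targeted gene, chaperones the study names, the 20 largest rises and falls, up to 6 called members of each list and the 8 largest differences in each direction. The largest rises and falls were taken only from called genes whose HS and Cont arrays did not overlap. The rule skips small RNA genes, and the microRNA genes, their hosts Mir17hg and Mir100hg, and Snord14e were added after their values were seen. The members and lists were chosen with earlier results of these data known. The alternatives tried number 28, and their effects close the text.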

Additional observations from a re-analysis of the deposited data

Results flagged for a closer look

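The heat response of the following genes differed between SSBP1-KD cells and other cells by the test of the difference itself (limma, adjusted p under 0.05). Values are the log2 heat response in SSBP1-KD cells minus that in the other cells. Against SCR cells the chaperones and co-chaperones gave -0.90 for Hspa1a, -1.12 for Hsph1, -0.70 for Hspa4l, -1.22 for Dnajb1, -0.90 for Dnaja4, -1.10 for Dnajb4, -0.67 for Dnaja1, -0.83 for Hspb1, -1.14 for Bag3 and -0.81 for Hspb8. Hsp90aa1 gave -0.51, Ahsa1 -0.40, Fkbp4 -0.42 and the mitochondrial Hspd1 -0.67. Snord14e, from an intron of Hspa8, gave -0.70.

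Among early genes the difference from SCR cells was -1.43 for Atf3, -0.82 for Jun, -1.39 for Fos, -1.3947 for Egr2, -1.78 for Phlda1, -0.67 for Klf6, -0.71 for Dusp1, -0.51 for Dusp8 and -0.49 for Errfi1. Ppp1r10 gave -0.54. The response was higher than in SCR cells for Krtap4-16 (1.08), Lpar6 (0.54), H2bc14 (0.52), H3c15 (1.4945) and Lfng (0.49).

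Against HSF1-KD cells the response was higher for Hspa1a (2.86), Hsph1 (1.15), Dnajb1 (1.63), Dnaja4 (0.60), Hspb1 (1.05), Bag3 (0.77), Snord14e (2.10), Krtap4-16 (1.3252) and Edn1 (0.64). It was lower for Jun (-0.55), Egr1 (-0.99), Errfi1 (-0.30) and Ppp1r10 (-0.49).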

How the results depend on the processing

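Counts are given as raised and lowered, where the values reported are 813 and 562. A fit on the compared arrays alone called 96 and 92, array weights 1308 and 1125, the methods' t-test 47 and 33 after Benjamini-Hochberg adjustment, and probe sets in place of genes 1468 and 1473. Setting array medians equal called 1049 and 406, which moves the split. Past 1.5-fold, where 42 and 83 are reported, brighter probe sets gave 26 and 30, probe sets in place of genes 571 and 791, and a fold above 2 gave 13 and 36. Leaving out 1 array gave 407 (without SSBP1-KD HS 1) to 695 raised and 329 (without SSBP1-KD HS 2) to 585 lowered, and past 1.5-fold 41 to 48 and 87 to 104. Without SSBP1-KD HS 3, 421 were raised.

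For a lower response than in SCR cells (62 reported) the compared arrays alone gave 29, brighter probe sets 127, a trended and robust prior 94 and array weights 181. For a higher one (36) the compared arrays alone gave 5, the replicate block 18, brighter probe sets 126, the trended prior 75, array weights 154 and analysis of variance 86. For a lower response than in HSF1-KD cells (10) the compared arrays alone gave 6, the replicate block 5, equal medians 6, brighter probe sets 80, probe sets with 1 symbol 29, the trended prior 65, array weights 111 and analysis of variance 77. For a higher one (58) these gave 9, 25, 88, 319, 137, 222, 221 and 257. Leaving out 1 array gave 33 to 83, 10 to 38, 4 to 15 and 16 to 52 for the 4 counts. The causes were not tested.

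With the replicate block the heat counts were 693 and 507. The same-numbered SSBP1-KD samples had residual correlations of -0.276 to 0.1175, with 1 of 3 above 0.1, so the numbers were not taken to pair the samples. Of 1649 values for 104 genes under other settings, 1484 kept direction and side of the threshold, 157 lost the call, 7 gained it and 1 turned: another probe set of Snhg17 read 0.1005 higher. The losses were uneven, with 68 of the 104 genes under the methods' t-test and 29 under the compared arrays alone. A change of call under at least 1 setting was seen for 73 of the 104 genes. The number of arrays and the dim signal of many microRNA genes limit what can be resolved.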
